A study of Mus musculus with 4 samples.

Results

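The genes described here encode the transcriptional coactivators YAP and TAZ, their DNA-binding partners of the TEAD family, an inhibitory kinase, and well-known targets of the complex. They were picked from the table by symbol, and all 10 (Yap1, Wwtr1, Tead1, Tead3, Tead4, Lats2, Ctgf, Cyr61, Ankrd1 and Amotl2) were among the 11603 genes of the deposited table. RNA was sequenced from muscle stem cells, the resident precursors of skeletal muscle, taken from the hindlimbs of male C57BL/6 mice aged 4 to 5 months. The cells had been sorted as VCAM1+/CD31-/CD45-/Sca1-. There were 2 libraries labelled Control and 2 labelled Conditional Hairless knockout, called knockout below. Hairless (Hr) is a nuclear corepressor, and the comparison asks which transcripts differ when it is conditionally deleted. What drives the deletion, and the alleles that the controls carry, is not given in the sources used here. No label ties a library to its own animal. The p-values therefore cover only the spread between these 4 libraries, which may be technical.

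YAP and TAZ (TAZ is the product of Wwtr1) do not bind DNA themselves and act on genes through TEAD proteins. The Hippo kinase cascade ends in the LATS kinases, which phosphorylate YAP and TAZ and keep them in the cytoplasm, where they can be degraded. The pathway responds to cell shape, contact and matrix stiffness, and in muscle stem cells it has been tied to activation and proliferation. Because YAP and TAZ are controlled largely as proteins, transcript levels alone do not report their activity.

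TEAD proteins bind a core sequence, GGAATG, or CATTCC read on the other strand. The 250 bases upstream of the start site are printed for 2 target genes, to show the core near genes with unlike differences between the groups. The sequences are from RefSeq on GRCm38.p6, run 5′ to 3′ on the strand of the gene, and have every match to the core in capitals. Ankrd1 lies at chr19:36119845-36120094 on the minus strand, and Cyr61 (listed as Ccn1 by RefSeq) at chr3:145649986-145650235 on the minus strand.
Ankrd1: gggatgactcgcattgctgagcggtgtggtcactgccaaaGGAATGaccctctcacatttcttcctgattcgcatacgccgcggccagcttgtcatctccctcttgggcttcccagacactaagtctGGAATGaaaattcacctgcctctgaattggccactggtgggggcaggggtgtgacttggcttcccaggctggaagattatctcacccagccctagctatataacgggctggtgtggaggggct
Cyr61: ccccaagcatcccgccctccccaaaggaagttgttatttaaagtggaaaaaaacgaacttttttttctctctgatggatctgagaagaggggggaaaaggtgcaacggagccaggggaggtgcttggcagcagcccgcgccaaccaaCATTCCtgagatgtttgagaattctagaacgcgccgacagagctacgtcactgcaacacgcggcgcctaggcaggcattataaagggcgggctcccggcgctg

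Ankrd1 held 2 matches, starting 210 and 123 bases upstream of the start site. Cyr61 held 1 match, 103 bases upstream. Amotl2 held 1, 65 bases upstream of a RefSeq start site that lies inside the gene's span in the deposited table. Of the 10 genes 7 had a promoter entry, and in 6 of these 7 at least 1 window held the core (Yap1, Wwtr1, Tead3, Cyr61, Ankrd1 and Amotl2, and not Lats2). Among all genes with a RefSeq entry, 14.4% had the core in at least 1 such window, and 12.6% of all windows held it. Ctgf, Tead1 and Tead4 had no entry. Both Lats2 windows (chr14:57734419-57734668 and chr14:57746124-57746373) lie inside the gene's span in the deposited table, so the 5′ end of that span was not searched. A match describes the letters of the window and does not show binding.

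Transcript of the targeted gene, counted over all its exons, was not lost, though both knockout values were below both control values. Hr had 9.28 and 8.94 RPKM (reads scaled by exon length and library size, as computed by the authors) in control 1 and control 2, and 7.15 and 7.90 RPKM in knockout 1 and knockout 2. Whether these reads cover the deleted stretch is not known, and the direction of each difference rests on the labels. Depth ranged from 21757211 to 34101213 reads per library, over all 11603 genes of the deposited table. All 12 muscle stem cell markers searched were measured, and Vcam1, the antigen of the sort, had 101 to 155 RPKM. The most abundant were Sdc4 (2121 and 1582 RPKM in the controls, 3031 and 3260 RPKM in the knockouts) and Myod1 (977 and 694 RPKM, 1711 and 1413 RPKM), both above both controls in each knockout. Of the 12 log2 fold changes (knockout minus control), 6 were above 0 and 6 below, with a median of 0.03. Of the genes for the excluded antigens, Ptprc (CD45) stayed at or below 0.0399 RPKM and Pecam1 (CD31) at or below 11.9 RPKM, while Ly6a (Sca1) had 47.9 and 49.5 RPKM in the controls and 77.4 and 80.7 RPKM in the knockouts. Summed levels of 8 measured myofibre markers were 181 and 750 RPKM in the controls and 66.6 and 55.7 RPKM in the knockouts, led by Acta1 and Tnnt3, so that control 2 stood apart. Summed levels of 20 immediate-early genes, which respond to tissue dissociation, were 11359 and 12717 RPKM in the controls and 15419 and 21284 RPKM in the knockouts, led by Egr1 and Junb. No gene measured in the marker lists given here was at 0 in any library. The summed levels across the 4 libraries were 444 to 686 RPKM for 9 of 11 fibro-adipogenic and tendon markers (led by Col3a1 and Dpt) and 45.4 to 82.2 RPKM for 8 of 8 endothelial markers (Cldn5 and Tek). For 6 of 8 blood markers (Cd74 and Lyz2) they were 26.4 to 34.96 RPKM in 3 libraries and 111 RPKM in knockout 1, where Cd74 had 98.9 RPKM. For 8 of 8 smooth muscle and pericyte markers (Acta2 and Notch3) they were 370 and 525 RPKM in the controls and 192 and 270 RPKM in the knockouts. Acta2 alone had 321 and 474 RPKM in the controls and 148 and 205 RPKM in the knockouts. Of the 8 log2 fold changes, 5 were above 0 and 3 below, with a median of 0.14. The part of these markers in the results below was not tested.

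The pathway was expressed in all 4 libraries. In order of mean RPKM over the 4 libraries the genes were Cyr61 (501), Ctgf (296), Wwtr1 (139), Ankrd1 (63.8), Yap1 (14.8), Amotl2 (10.7), Lats2 (8.40), Tead1 (7.97), Tead3 (6.25) and Tead4 (0.499). The ranges over libraries of neighbours in this order did not overlap, apart from those of Lats2 with Tead1 and of Tead1 with Tead3. Cyr61 ranked 147th and Ctgf 248th of the 11603 genes by mean RPKM, while Tead4 ranked 10785th. The plot of levels by library shows the order and the spread.

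**Figure D1:**
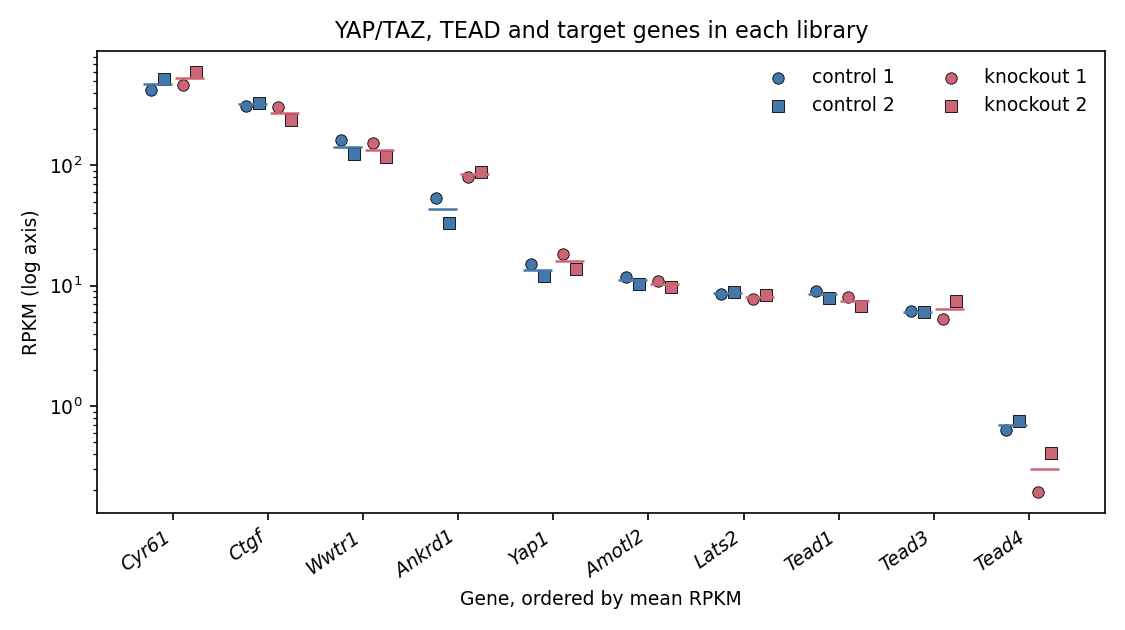
RPKM (log axis) of the 10 genes in each library, ordered by mean, with control in blue and knockout in red; symbols mark the library number and short lines the group means (n = 2). The knockout points of Ankrd1 (80.8 and 88.2 RPKM) lie above its control points (53.4 and 32.9 RPKM), those of Tead4 lie below, and most other genes overlap.

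Between knockout and control, 2 of the 10 genes stood out by size, in opposite directions. Ankrd1 had 1.96-fold the control mean in knockout, and Tead4 had a 2.32-fold lower mean. The limma test over all genes called 0 of the 10 after adjustment, against 0.00862% of all genes (1 of 11603), while 2 of the 10, Ankrd1 and Tead4, had an unadjusted p under 0.05. That is 20.0% of the 10, near the 18% of all genes (10.3% higher and 7.69% lower). limma-voom on recovered reads also called 0 of the 10. In the authors' deposited table, 2 of the 10 had an adjusted p under 0.05, Ankrd1 higher and Tead4 lower, against 7.84% of all genes (3.59% higher and 4.26% lower). The libraries of the groups did not overlap for 4 of the 10 genes, with Ankrd1 higher in knockout and Tead4, Lats2 and Ctgf lower. This was below the share of all genes, 51.2% (25.0% higher and 26.2% lower). The median log2 fold change of the 10 genes was -0.09, beside -0.01 for all genes tested. Log2 fold changes are knockout minus control on the log2(RPKM + 0.5) scale. On it the differences of low genes come out too small.

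**Figure D2:**
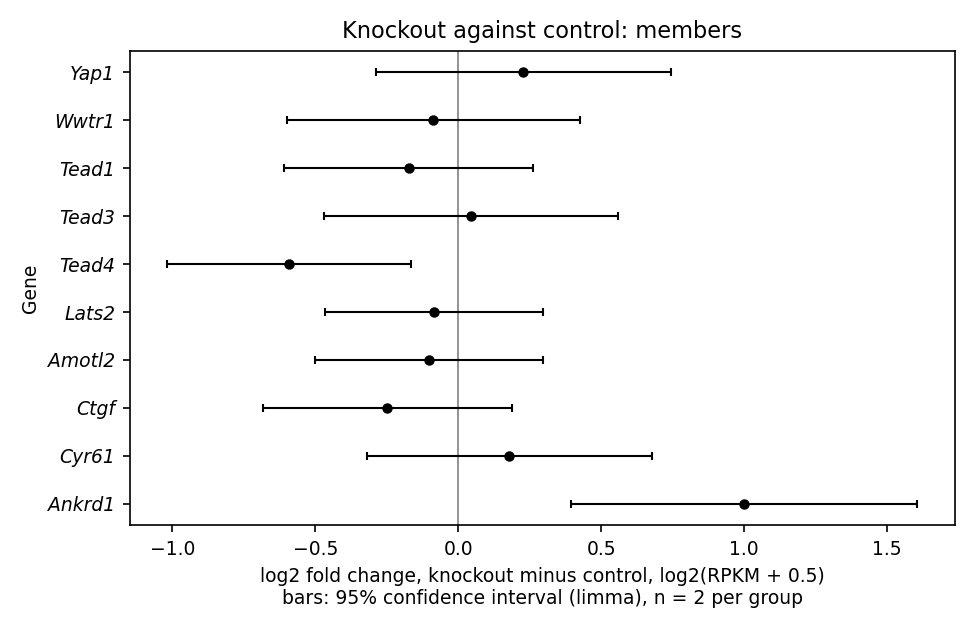
Log2 fold change of each of the 10 genes (knockout minus control, log2(RPKM + 0.5) scale) with the 95% confidence interval from limma, n = 2 per group. The intervals of Ankrd1 (0.40 to 1.61) and Tead4 (-1.02 to -0.17) do not include 0, before any adjustment for the number of genes; those of the other 8 genes do.

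Gene positions are those of the exons in the deposited table (mm10), which counts reads over all exons of a gene. Among the coactivators, TAZ was the main transcript. Wwtr1 (Entrez 97064, chr3:57455649-57575910, minus strand), which encodes TAZ, had 161 and 125 RPKM in the controls and 154 and 116 RPKM in the knockouts. Library 1 was the higher in both groups, and the groups overlapped. The log2 fold change was -0.09 (95% confidence interval -0.60 to 0.42), with a limma adjusted p of 0.854. Yap1 (Entrez 22601, chr9:7931999-8004596, minus strand), which encodes YAP, had 15.1 and 12.0 RPKM in the controls and 18.3 and 13.7 RPKM in the knockouts. Library 1 was again the higher in both groups and the groups overlapped. Its log2 fold change was 0.23 (-0.29 to 0.74), with a limma adjusted p of 0.597. For both genes the interval still allows a change in either direction. The ratio of Wwtr1 to Yap1, taken within each library and so free of library scaling, was 10.7 and 10.4 in control and 8.38 and 8.51 in knockout. The means were 10.6 ± 0.219 and 8.44 ± 0.0884 (SD, n = 2), and the groups did not overlap. A two-sided exact permutation test gave p = 0.333, the smallest value that 2 libraries against 2 can give.

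TEAD transcripts were made mostly of Tead1 and Tead3, and the larger relative differences were in the less abundant members. Tead1 (Entrez 21676, chr7:112679318-112906807, plus strand), the most abundant TEAD factor on average, had 9.09 and 7.87 RPKM in the controls and 8.08 and 6.85 RPKM in the knockouts, a log2 fold change of -0.17 (-0.61 to 0.26) and a limma adjusted p of 0.635. Tead3 (Entrez 21678, chr17:28331671-28350805, minus strand) had 6.14 and 6.07 RPKM in the controls and 5.31 and 7.47 RPKM in the knockouts. Its knockout values lay on either side of both control values, and the log2 fold change was 0.04 (-0.47 to 0.56) with a limma adjusted p of 0.938. Tead4 (Entrez 21679, chr6:128224288-128300823, minus strand), a TEAD factor linked to myogenic differentiation, had 0.636 and 0.759 RPKM in the controls and 0.194 and 0.406 RPKM in the knockouts. Both knockout values were below both control values. They rested on few reads, 53 and 57 in control against 18 and 24 in knockout. The means were 0.698 ± 0.0876 and 0.300 ± 0.150 RPKM (SD, n = 2), a log2 fold change of -0.59 (SE 0.17) and a limma adjusted p of 0.196. In the authors' deposited table the adjusted p was 0.00581. At such a low level the estimate moved with the constant added before the logarithm, from -1.04 with 0.1 to -0.39 with 1, and limma-voom gave -1.37.

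Tead2, the fourth TEAD gene, had 2.02 and 2.81 RPKM in the controls and 0.871 and 1.63 RPKM in the knockouts. Both knockout values were below both control values here as well, with a log2 fold change of -0.76 (SE 0.27) and a limma adjusted p of 0.238. In the authors' deposited table its adjusted p was 0.00798. Without control 2 the log2 fold change of Tead2 was -0.56 and without knockout 1 it was -0.44. As a share of the summed RPKM of the 4 TEAD genes, Tead4 made up 3.55% and 4.34% in control and 1.34% and 2.48% in knockout, and Tead2 made up 11.3% and 16.1% against 6.03% and 9.96%. Tead1 and Tead3 together made up the rest, and Tead1 alone ranged from 41.9% to 55.9%. The groups did not overlap for the shares of Tead2, Tead3 and Tead4, each with an exact permutation p of 0.333, the smallest possible here. Shares of a sum depend on one another, so these are not separate results, and the RPKM of Tead3 itself overlapped between the groups. Control 2 was the highest library for Tead4, Tead2 and the summed myofibre markers. Between the knockouts the order differed: knockout 1 had more of the markers and less Tead4 and Tead2 than knockout 2. The part of fibre RNA in these values was not tested. In bulk samples, fewer cells of a type and less RNA per cell cannot be told apart.

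**Figure D3:**
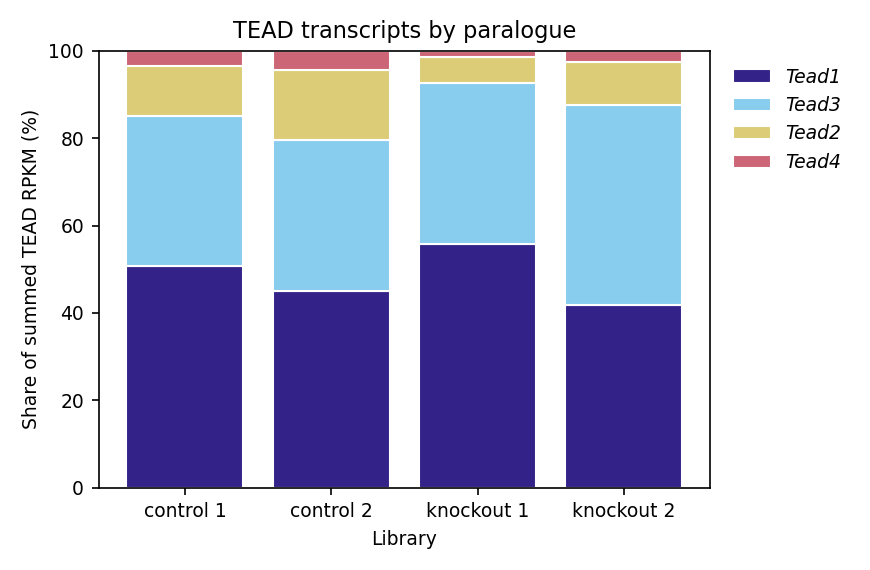
Share of each TEAD gene in the summed RPKM of the 4 TEAD genes, in percent, as 1 stacked bar per library. Tead1 and Tead3 fill most of every bar, and the Tead2 and Tead4 segments are smaller in both knockout libraries (Tead4 at 1.34% and 2.48%) than in both control libraries (3.55% and 4.34%).

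The 2 inhibitory genes, which are themselves induced by YAP and TAZ in many cells, had close means in both groups. Lats2 (Entrez 50523, chr14:57642077-57758388, minus strand), a terminal kinase of the Hippo cascade, had 8.53 and 8.79 RPKM in the controls and 7.83 and 8.44 RPKM in the knockouts. Both knockout values were below both control values, by little. The log2 fold change was -0.09 (-0.47 to 0.30), with a limma adjusted p of 0.803. Amotl2 (Entrez 56332, chr9:102716672-102733418, plus strand), an angiomotin family protein that binds and retains YAP, had 11.8 and 10.4 RPKM in the controls and 10.9 and 9.73 RPKM in the knockouts. The groups overlapped, and the log2 fold change was -0.10 (-0.50 to 0.30) with a limma adjusted p of 0.775. As ratios the intervals run from 0.723 to 1.23 for Lats2 and from 0.707 to 1.23 for Amotl2 and changes within these bounds are not excluded.

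Of the 3 secreted or nuclear targets most often used as readouts, Ankrd1 had the large difference, and the intervals of Ctgf and Cyr61 included 0. Ctgf (Entrez 14219, chr10:24595442-24598683, plus strand), a secreted matricellular protein, had 311 and 329 RPKM in the controls and 306 and 237 RPKM in the knockouts. Knockout 1 lay just below the controls and knockout 2 further below. The log2 fold change was -0.25 (-0.68 to 0.19), with a limma adjusted p of 0.4999. It was -0.48 after scaling to the reads listed, -0.57 after quantile normalization, -0.43 without knockout 1 and -0.065 without knockout 2, with the adjusted p above the threshold in each. Cyr61 (Entrez 16007, chr3:145646976-145649981, minus strand), a related matricellular protein, had 419 and 520 RPKM in the controls and 467 and 598 RPKM in the knockouts. Library 2 was the higher in both groups and the groups overlapped. Its log2 fold change was 0.18 (-0.32 to 0.68), with a limma adjusted p of 0.674. The ratio of Cyr61 to Ctgf within a library was 1.35 and 1.58 in control and 1.53 and 2.52 in knockout, which overlapped.

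Ankrd1 (Entrez 107765, chr19:36111965-36119844, minus strand), a nuclear ankyrin repeat protein induced in stressed and stretched muscle, had 53.4 and 32.9 RPKM in the controls and 80.8 and 88.2 RPKM in the knockouts. Both knockout libraries were above both control libraries. The reads behind these values numbered 2185 and 1212 in control and 3680 and 2556 in knockout, so counting error was small beside the spread between the controls. The means were 43.1 ± 14.5 and 84.5 ± 5.24 RPKM (SD, n = 2), a log2 fold change of 1.0004 (SE 0.24) and a limma adjusted p of 0.177. In the authors' deposited table the adjusted p was 0.0321. The size depended on control 2, which had the lowest Ankrd1 and the highest summed myofibre markers. Without it the log2 fold change was 0.66, and without control 1 it was 1.35. The 20 immediate-early genes stood on the same side: 12 had both knockout values above both control values and 0 had both below (60.0% of the 20, beside 25.0% higher among all genes), with a median log2 fold change of 0.54. Of these 20 genes limma called 0 over all genes, and limma-voom called 0. An unadjusted limma p under 0.05 was found for 7, all higher in knockout (35% of the 20, beside 10.3% higher among all genes). The authors' deposited table had 3 of the 20 higher, Junb, Btg2 and Dusp1, and 0 lower (15.0%, beside 7.84% of all genes, of which 3.59% higher). The part of the 20 immediate-early genes in the Ankrd1 difference was not tested.

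A wider YAP/TAZ target signature of 22 genes, of which 20 were measured, held genes above and below the controls. It includes Lats2, Amotl2, Ctgf, Cyr61 and Ankrd1. Log2 fold changes were above 0 for 8 genes and below 0 for 12, with a median of -0.09 beside -0.01 for all genes. limma called 0 of the 20 over all genes, 2 had an unadjusted p under 0.05 and were higher and 1 was lower (15.0%, beside 18% of all genes), and limma-voom called 0. The authors' deposited table had 2 higher (Ankrd1 and Gadd45a) and 1 lower (Igfbp3), 15.0% of the 20 beside 7.84% of all genes. Gadd45a, a stress and growth arrest gene, had 295 and 317 RPKM in the controls and 415 and 537 RPKM in the knockouts, with a log2 fold change of 0.62 (0.18 to 1.07), a limma adjusted p of 0.196 and an adjusted p of 0.0205 in the authors' deposited table. Scaling moved it, to 0.39 by the reads listed and 0.25 after quantile normalization. Igfbp3, which binds insulin-like growth factors, had 16.5 and 21.2 RPKM in the controls and 8.67 and 10.7 RPKM in the knockouts. Its log2 fold change was -0.92 (-1.41 to -0.44), with a limma adjusted p of 0.162 and an adjusted p of 0.0241 in the authors' deposited table. The groups did not overlap for 16 of the 20 genes, 6 higher and 10 lower (80.0%, beside 51.2% of all genes).

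**Figure D4:**
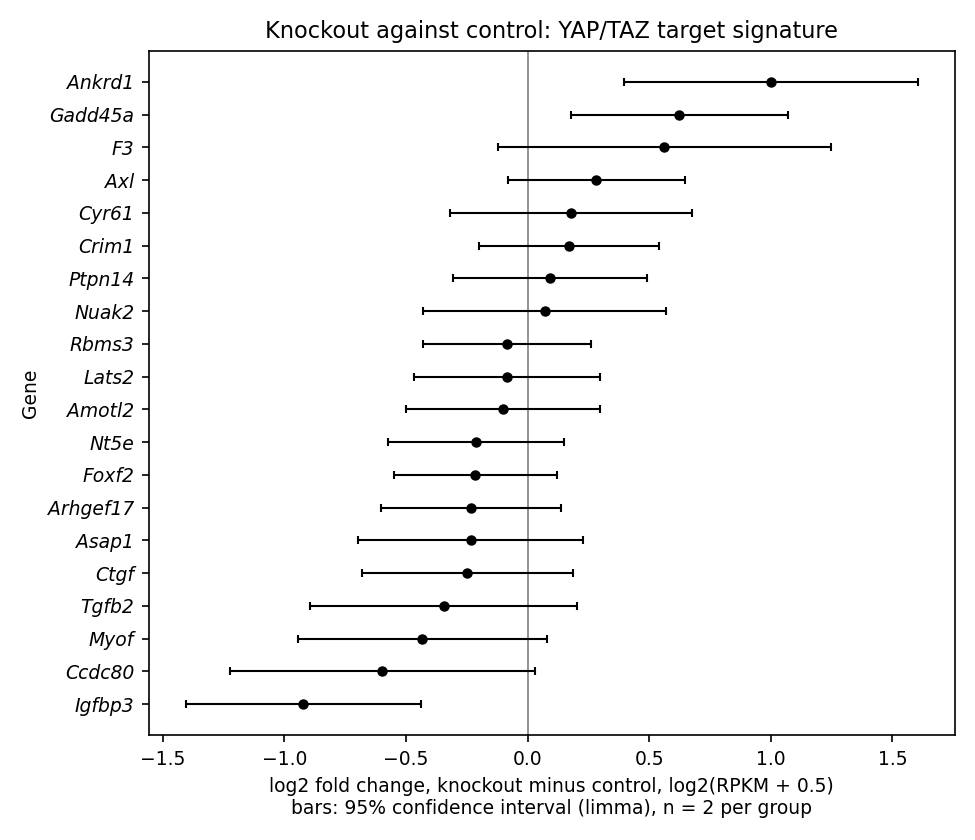
Log2 fold change (knockout minus control, log2(RPKM + 0.5) scale) of the 20 measured genes of the YAP/TAZ target signature, sorted by value, with the 95% confidence interval from limma, n = 2 per group. Ankrd1 (1.0004) and Gadd45a (0.62) lie at the top and Igfbp3 (-0.92) at the bottom; 8 genes lie above 0 and 12 below.

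Other cofactors and partners also had differences on both sides of 0. Of 17 listed genes 16 were measured, 6 had a log2 fold change above 0 and 10 below, and the median was -0.08. limma called 0 over all genes, 1 higher and 2 lower had an unadjusted p under 0.05 (18.8%, beside 18% of all genes), and limma-voom called 0. The authors' deposited table had 3 lower, Tead2, Tead4 and Ajuba, and 0 higher (18.8%, beside 7.84% of all genes, of which 4.26% lower). Ajuba, a LIM protein that inhibits LATS kinases, had 1.80 and 4.05 RPKM in the controls and 1.03 and 1.63 RPKM in the knockouts. Control 2 was well above the other libraries. The log2 fold change was -0.84 (-1.74 to 0.06), with a limma adjusted p of 0.301 and an adjusted p of 0.00949 in the authors' deposited table. The estimate was -0.35 without control 2 and -1.33 without control 1. Vgll2, a vestigial-like TEAD cofactor of skeletal muscle and the most abundant partner after Wwtr1, had 98.6 and 86.6 RPKM in the controls and 134 and 132 RPKM in the knockouts. Both knockout values were above both controls, with a log2 fold change of 0.52 (0.18 to 0.87), a limma adjusted p of 0.189 and an adjusted p of 0.113 in the authors' deposited table. It was 0.28 when scaled by the reads listed and 0.29 after quantile normalization.

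Upstream, every listed gene of the Hippo cascade had reads in each library, but some had very few, as few as 4 in control 1. All 24 listed kinases, adaptors and regulators were measured, with 8 log2 fold changes above 0 and 16 below and a median of -0.07. limma called 0 over all genes, 0 had an unadjusted p under 0.05 (beside 18% of all genes), and limma-voom called 0. The most abundant were Frmd6, a FERM protein upstream of the cascade (117 and 96.6 RPKM in the controls, 130 and 93.5 RPKM in the knockouts), and Mob1a, an activator of LATS kinases (38.6 and 32.1 RPKM, 29.5 and 24.9 RPKM). The authors' deposited table had 1 of the 24 higher and 0 lower (4.17%, below the 7.84% of all genes). This gene, Rassf1, a scaffold of the upstream kinases named after its values were seen, had 11.7 and 13.4 RPKM in the controls and 15.4 and 25.6 RPKM in the knockouts, with an adjusted p of 0.0439 there and a log2 fold change of 0.64 and an adjusted p of 0.280 by limma. Its log2 fold change was 0.29 without knockout 2 and 1.0036 without knockout 1.

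Genes of the actin cytoskeleton and its factor SRF, which share several targets with YAP and TAZ, had values on both sides of the controls, 5 of them above 0 and 12 below. All 17 listed genes were measured and the median log2 fold change was -0.24. limma called 0 over all genes, 2 higher and 3 lower had an unadjusted p under 0.05 (29.4%, beside 18% of all genes), and limma-voom called 0. Tagln2 and Actg1 were the most abundant, with 881 and 738 RPKM and 483 and 566 RPKM in the controls against 1091 and 1161 RPKM and 581 and 1214 RPKM in the knockouts. The authors' deposited table had 2 of the 17 (11.8%, beside 7.84% of all genes). Actg1 was higher there, and Acta2 was lower, at 321 and 474 RPKM in the controls and 148 and 205 RPKM in the knockouts.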

How the data were processed

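Per the submitters' processing notes, the authors trimmed, aligned and counted with tools that include Trim Galore, STAR and featureCounts (Subread), and used edgeR, on mm10 (GRCm38). No version or setting is given in the sources used here. The 4 deposited columns of library values carry no unit. They behaved as RPKM computed by the authors. Every value times gene length, divided by a scale fitted for each column, was a whole number of reads (100% within 0.01 reads). The Ct columns were taken as control and the Fl columns, by elimination, as knockout. The deposited q-value column gives the authors' adjusted p-value, whose model is not given. Here limma 3.58.1 in R 4.3.3 was fitted with a mean-variance trend to log2(RPKM + 0.5) of all 11603 genes, with genotype as the only term, Benjamini-Hochberg adjustment and a threshold of 0.05. The fit was also run on simulated counts with independent libraries and a single dispersion for every gene, a simpler setting than these data. Replicates of a group differed by more than sampling noise. The spread between 2 libraries per group sets the precision. The members and gene lists were chosen with earlier results of these data known. One of the marker lists is not reported here. All members were named. From other lists, genes past the threshold or else the 2 most abundant were named, with signature and partner genes called in the authors' table. Alternatives were 2 other pseudocounts, a filter at a mean of 1 RPKM, scaling by the reads listed, quantile normalization, limma-voom, no trend, a replicate block and leaving out each library.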

Additional observations from a re-analysis of the deposited data

How the results depend on the processing

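Of 119 recalculations for the 10 genes, 109 kept the direction and the side of the threshold. With the replicate number as a block, 2 of the 10 genes were called, Ankrd1 (limma adjusted p 0.0349) and Tead4 (0.0466), as were 2 signature genes, Ankrd1 and Igfbp3 (0.0160), and Tead2 (0.0380), Ajuba (0.0407) and Vgll2 (0.0483). Over all genes that fit called 1004 genes instead of 1. The labels give no reason for pairing, and same-numbered libraries deviated together across 10007 genes with r = 0.414. For 7 of the 10 genes the same library number was the higher in both groups, beside 66.7% of genes with a mean of at least 1 RPKM. Scaling libraries by their listed reads took the median of all genes from -0.01 to -0.20, that of the 10 genes to -0.31 and that of the signature to -0.31, with log2 fold changes of -0.0013 for Yap1, -0.17 for Tead3 and -0.058 for Cyr61. Quantile normalization gave -0.26 for Cyr61. The library sizes implied by the RPKM values were 85.9% and 92.4% of the listed reads in control 1 and control 2. They were 75.7% and 75.5% in knockout 1 and knockout 2, and why these shares differ was not tested. The median of the 10 genes ran from -0.13 to 0.0021 when 1 library was left out at a time. Leaving out 1 library gave 0.022 to 0.43 for Yap1, -0.29 to -0.063 for Tead1, -0.14 to -0.036 for Lats2, -0.19 to -0.018 for Amotl2, -0.29 to 0.11 for Wwtr1, -0.18 to 0.27 for Tead3, -0.00070 to 0.36 for Cyr61 and -0.13 to -0.052 for the signature median. The count of the 10 genes with groups that did not overlap was then 5 to 9, where fewer libraries overlap less often by construction. Tead4 fell under the filter on low values and was not tested there.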
